A study of Mus musculus with 36 samples.

Results

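The comparison set non-pathogenic Th17 cells (Th17n) against pathogenic Th17 cells (Th17p) when both were grown with difluoromethylornithine (DFMO). Its members are the 6 libraries labelled Th17n DFMO or Th17p DFMO, 3 of each, out of 18 libraries in the series. Each library was sequenced in 2 runs, so the members take 12 of 36 columns of the count table. The Th17n and Th17p cultures that received vehicle in place of DFMO, 3 libraries each from the same 3 animals, served to show which lineage differences were also present with polyamine synthesis intact.

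The starting cells of every group were naive CD4 T cells (CD44-, CD62L+, CD25-) sorted from spleens of C57BL/6 mice, whose animal labels (WT1 to WT3) mark them as wild type, and activated on plates coated with anti-CD3 and anti-CD28 antibodies at 1 µg/ml each. Th17n DFMO cultures received IL-6 at 25 ng/ml, TGF-beta 1 at 2 ng/ml and DFMO at 100 µM. Th17p DFMO cultures received IL-6 at 25 ng/ml, IL-1b at 20 ng/ml, IL-23 at 20 ng/ml and DFMO at 100 µM. Th17n and Th17p vehicle cultures had the same cytokines without DFMO. All were harvested at 68 h and sorted for live cells. These are cultured cells, each set of groups coming from 1 animal, and the lineages differ in 3 cytokines at once, so the part of any single cytokine cannot be told apart.

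Polyamines (putrescine, spermidine and spermine) are small cations that bind RNA and DNA, and spermidine is the donor for the hypusine residue of the translation factor eIF5A. Ornithine decarboxylase (Odc1) makes putrescine and is the enzyme that DFMO inactivates. Th17 cells are helper T cells that secrete IL-17. Cells raised with TGF-beta and IL-6 tend to make IL-10 and are weak at inducing autoimmune tissue inflammation in mice, whereas cells raised with IL-1b and IL-23 are strong at it.

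Under DFMO, 1939 of 11526 genes tested (16.8%) differed between Th17n and Th17p at an adjusted p under 0.05. Of these, 927 (8.04% of genes tested) were higher and 1012 (8.78%) were lower in Th17n, and 785 differed by at least 1 on the log2 scale. On log2(TPM + 1), where limma called 1764 genes, the split was 618 higher and 1146 lower. In vehicle, 2303 genes (20.0%) were called, 1091 higher (9.47%) and 1212 lower (10.5%) in Th17n. Without scaling factors, Th17n was above in 822 and below in 1571 of the vehicle calls, and on log2(TPM + 1) in 645 and 1781. The difference between the DFMO and the vehicle lineage difference was called for 574 genes (4.98%), 303 of them upward (2.63%) and 271 downward (2.35%). Fewer genes passed with 2 animals per group: 1253 without animal 1, 898 without animal 2 and 1517 without animal 3 under DFMO, and 1346, 944 and 1553 in vehicle. The test of the difference between lineage differences then called 97, 27 and 331 genes, against 574 with all animals. Its calls thus depended strongly on having 3 animals. Lost calls given for single genes below are those of the DFMO difference, and losses in the test of the difference between lineage differences are not shown gene by gene. All log2 fold changes below are Th17n over Th17p with their standard error, from edgeR's quasi-likelihood test with n = 3 animals per group, and the median over all genes tested was -0.01 under DFMO and -0.01 in vehicle. Levels are library-scaled counts (CPM), always in the order of animals 1, 2 and 3. Shares of genes whose DFMO libraries did not overlap between the lineages were 16.8% with Th17n above and 18.2% with Th17n below.

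Among the 2303 genes that separated the lineages in vehicle, 903 (39.2%) were also called under DFMO in the same direction, 456 of them higher and 447 lower in Th17n. A further 1373 (59.6%) were not called under DFMO, and for 246 of these the difference between lineage differences was itself called. Only 27 were called in the opposite direction. The sign was kept by 1817 (78.9%). The 903 genes had a median absolute log2 fold change of 0.98 under DFMO and 0.86 in vehicle, and in 564 of them the DFMO value was the larger. The 1373 genes had medians of 0.16 under DFMO and 0.50 in vehicle. These genes were picked as called in vehicle and not under DFMO, which by itself favours a smaller DFMO median. Their medians therefore do not measure a loss of the lineage difference. Read from the DFMO side, 903 of 1939 calls (46.6%) were made in vehicle too and 1009 were not. For 208 of the 1009, the difference between lineage differences was called. Leaving out animal 1 or animal 2 lowered the 903 shared calls to 532 and 382.

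**Figure D1:**
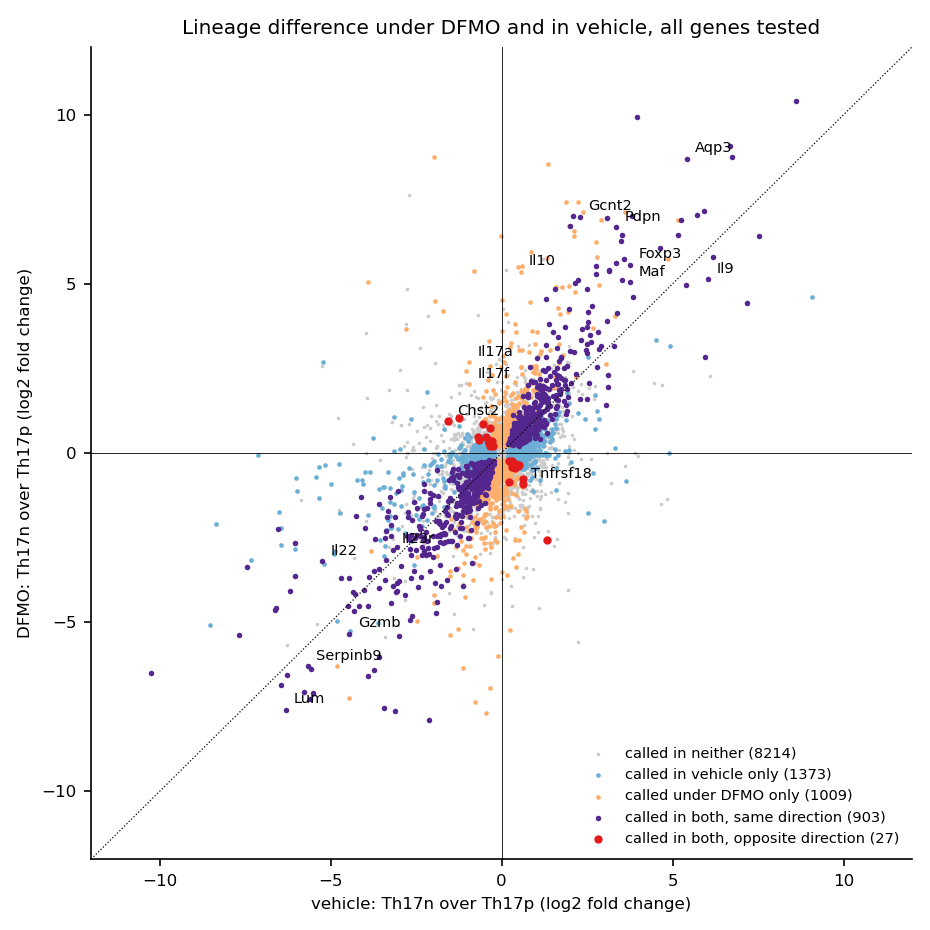
Log2 fold change of Th17n over Th17p for the 11526 genes tested, under DFMO (vertical axis) and in vehicle (horizontal axis), coloured by the edgeR calls, with the dotted line marking equal values. The 903 genes called in both in the same direction lie along the diagonal, the 27 called in opposite directions lie in the other quadrants, and Il10, Il17a and Il17f sit far above their vehicle values.

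The libraries themselves separated first by treatment. In a principal component analysis of the 12 Th17 libraries, the first component (39.4% of variance) placed Th17n DFMO libraries at 54.4 to 59.4, Th17p DFMO libraries at 20.2 to 26.9, Th17n vehicle libraries at -36.6 to -29.2 and Th17p vehicle libraries at -46.5 to -44.1. On the second component (28.1%), Th17n DFMO libraries lay at -28.8 to -20.4 and Th17p DFMO libraries at 43.1 to 45.9. Depth was 8970331 to 11378022 estimated counts in the Th17n DFMO libraries and 9258798 to 13986923 in the Th17p DFMO libraries. The genes listed in the table took 76.9% to 78.0% of the full TPM scale in Th17n DFMO libraries and 79.4% to 80.5% in Th17p DFMO libraries. These ranges do not overlap, and their part in the results was not tested. In bulk RNA, fewer cells of a kind and less RNA per cell cannot be told apart.

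The signature cytokines of the lineage were among the genes whose lineage difference changed most with DFMO. Il17a encodes IL-17A and lies on chromosome 1 (GRCm38 20730905 to 20734496), close to Il17f (20777146 to 20790617), which encodes IL-17F. Il17a stood at 83.9, 41.8 and 211 CPM in the Th17n DFMO libraries, against 26, 10.2 and 16.9 CPM in the Th17p DFMO libraries. Every Th17n value lay above every Th17p value, with animal 3 far the highest in Th17n. In vehicle Il17a had 166, 226 and 251 CPM in Th17n and 345, 531 and 359.6 CPM in Th17p, where every Th17n value lay below every Th17p value but the gap missed the threshold. The log2 fold change was 2.69 ± 0.52 under DFMO (adjusted p 0.00282) and -0.94 ± 0.46 in vehicle (adjusted p 0.186), and the difference between them was 3.63 ± 0.69 (adjusted p 0.0112). The DFMO call was lost with only the compared groups in the fit (adjusted p 0.106), without animal 1 (0.0829) and without animal 3 (0.0895).

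Il17f followed the same order, with 521, 548 and 886 CPM in Th17n DFMO and 174, 188 and 117 CPM in Th17p DFMO. Vehicle cultures held 855, 595 and 771 CPM in Th17n and 1539.8, 1350.0 and 1370.2 CPM in Th17p. Th17n was thus above Th17p in each animal under DFMO and below it in each animal in vehicle, where the gap again missed the threshold. The DFMO difference was 2.03 ± 0.37 (adjusted p 0.00198; 0.0605 without animal 1), the vehicle difference -0.94 ± 0.36 (adjusted p 0.0876), and the change between them 2.97 ± 0.51 (adjusted p 0.00727).

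Il21, a cytokine that amplifies Th17 differentiation, was higher in Th17n with either treatment. It had 474, 339.6 and 419 CPM in Th17n DFMO libraries and 158, 130.1 and 156 CPM in Th17p DFMO libraries, with no overlap, a log2 fold change of 1.47 ± 0.17 (adjusted p 1.1e-05). The vehicle value was 0.96 ± 0.17 (adjusted p 0.000792). Il22, which acts on epithelial cells, went the other way at 6.11, 2.56 and 64.4 CPM in Th17n DFMO and 307, 149 and 224 CPM in Th17p DFMO. The groups did not overlap, and the Th17n library of animal 3 was far above the other Th17n libraries. The difference of -3.20 ± 0.92 passed narrowly (adjusted p 0.0378; 0.0484 in the paired fit with the animal as a replicate block) and was lost without animal 1 (0.365), without animal 2 (0.154), with only the compared groups (0.194), without the low-count filter (0.0555) and in run 2 alone (0.0554).

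Of 24 genes of the Th17 core list, 14 were higher and 6 lower in Th17n under DFMO, with a median log2 fold change of 0.89, and 11 were higher and 4 lower in vehicle (median 0.41). Calls with the same direction in both numbered 14. The shares over all genes tested, to set beside this and every list count below, were 8.04% higher and 8.78% lower under DFMO, and 9.47% and 10.5% in vehicle. Rora, a nuclear receptor that promotes the Th17 programme, stood at 64.5, 51.7 and 105 CPM in Th17n DFMO and 34.2, 35.7 and 40.7 CPM in Th17p DFMO. These did not overlap, and the difference of 1.00 ± 0.25 (adjusted p 0.00992) was lost without animal 1 (0.11).

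Receptors of cytokines supplied in the cultures, and a receptor chain for IL-12, which was not supplied, split by lineage. Il6st, the shared signalling chain gp130, was higher in Th17n DFMO by 2.15 ± 0.19 (adjusted p 6.26e-08), and the IL-6 receptor chain Il6ra by 1.51 ± 0.19 (adjusted p 5.86e-06). Il23r, the receptor chain for IL-23, had 2.19, 1.5 and 1.27 CPM in Th17n DFMO, against 13.1, 11.9 and 10.7 CPM in Th17p DFMO. All Th17n libraries lay below all Th17p libraries, and the difference was -2.86 ± 0.29 (adjusted p 3.41e-07), beside -3.17 ± 0.26 in vehicle (adjusted p 2.78e-08). Vehicle libraries held more of it in every animal, at 6.47, 4.37 and 7.01 CPM in Th17n and 66.3, 55.7 and 39.9 CPM in Th17p. Il1r1, the IL-1 receptor, had 1.61, 1.24 and 0.544 CPM in Th17n DFMO and 7.37, 2.33 and 1.53 CPM in Th17p DFMO, which overlap. Its log2 fold change of -1.71 ± 0.57 passed (adjusted p 0.0457), and the call was lost without animal 1 (0.232), 2 (0.159) or 3 (0.0846). Il12rb2, a receptor chain for IL-12, had 15.9, 10.1 and 14.3 CPM in Th17n DFMO and 199.7, 198 and 217 CPM in Th17p DFMO. That gap of -3.94 ± 0.41 (adjusted p 1.85e-05) stood beside a vehicle gap of -1.78 ± 0.35, and the gaps differed by -2.16 ± 0.52 (adjusted p 0.0336). Il12rb2 shares 1419 bases of exon with Serbp1, and strand use in the counting is not given in the sources used here.

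**Figure D2:**
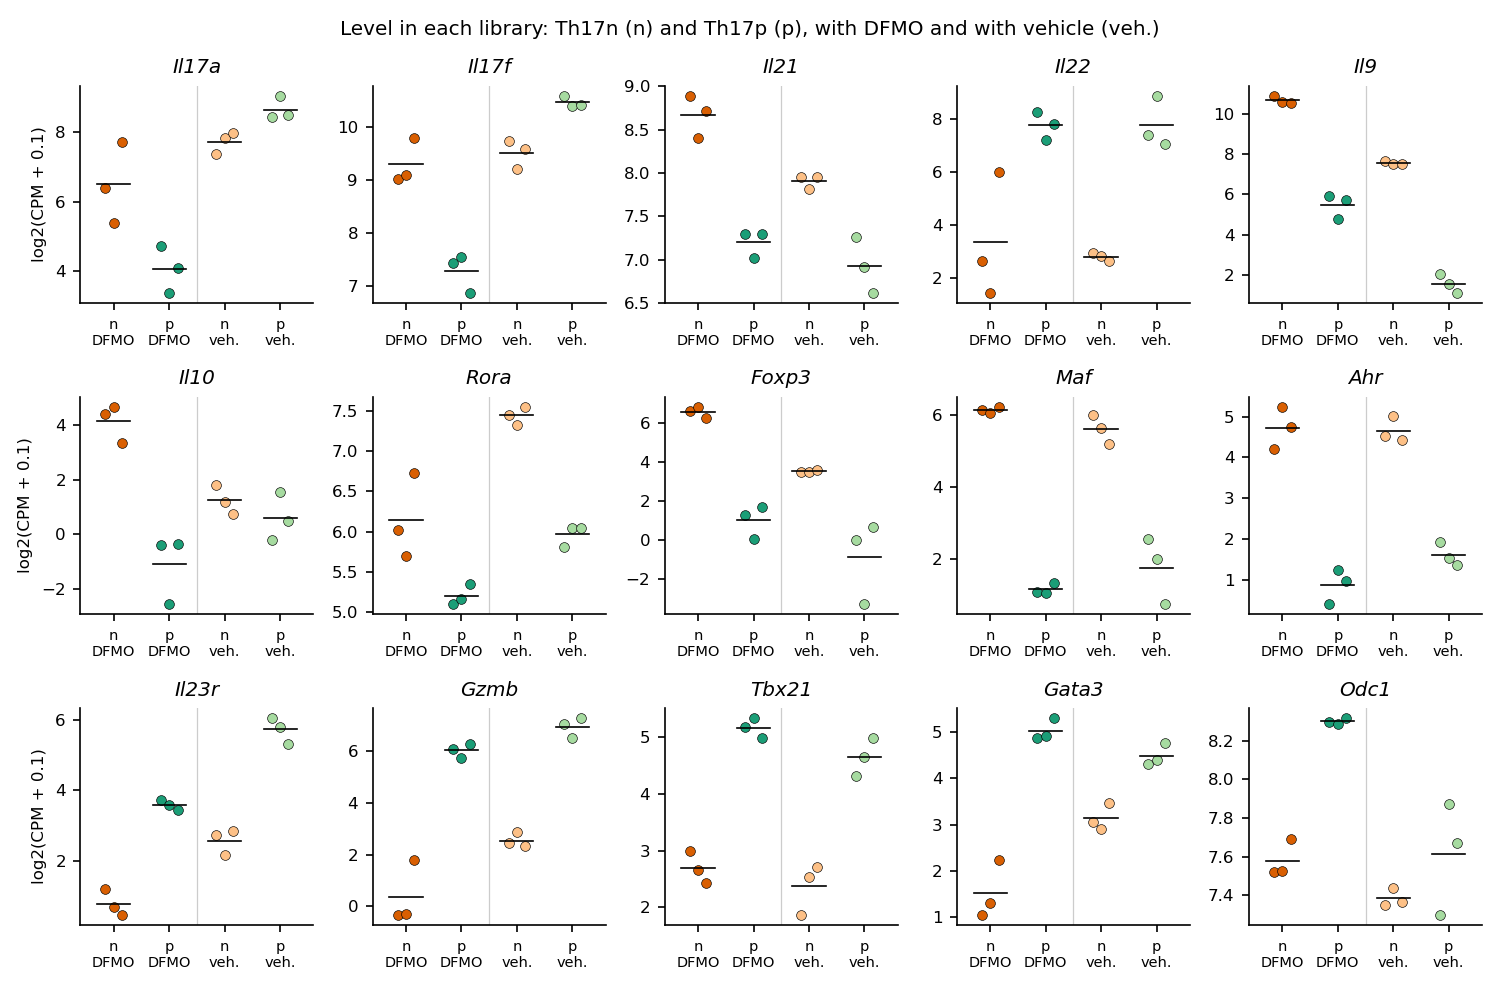
Level of 15 genes in each library as log2(CPM + 0.1), with Th17n (n) left of Th17p (p), DFMO libraries left of vehicle libraries, points for animals 1 to 3 from left to right and bars for the mean. Il17a and Il17f lie higher in Th17n under DFMO and below Th17p in vehicle (adjusted p 0.186 and 0.0876, not called), Il10 parts the lineages under DFMO, and Foxp3, Maf, Ahr, Il9, Il23r, Gzmb and Tbx21 keep their order in both.

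Genes known from Th17 cells with regulatory features were higher in Th17n under DFMO. All 8 members of the non-pathogenic Th17 list were higher in Th17n under DFMO (median 3.29), and 6 of 8 in vehicle (median 2.38). The list comes from earlier work on Th17 cells raised with such cytokines, so its direction is no independent evidence. Il9, a mast cell and T cell growth factor, reached 1915, 1552 and 1494 CPM in Th17n DFMO, against 61.1, 27.2 and 53.5 CPM in Th17p DFMO. No library overlapped, and the difference was 5.14 ± 0.28 under DFMO (adjusted p 4.19e-08) and 6.04 ± 0.34 in vehicle (adjusted p 9.83e-08), at lower levels of 202, 185 and 184 CPM in Th17n and 3.96, 2.79 and 2.02 CPM in Th17p.

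Il10, the anti-inflammatory cytokine, had 21.1, 25.2 and 10.1 CPM in Th17n DFMO and 0.67, 0.0706 and 0.681 CPM in Th17p DFMO. Vehicle libraries overlapped, at 3.42, 2.19 and 1.58 CPM in Th17n and 0.771, 2.79 and 1.29 CPM in Th17p. Accordingly the log2 fold change was 5.36 ± 0.65 under DFMO (adjusted p 7.98e-06) and 0.56 ± 0.58 in vehicle (adjusted p 0.563), and the difference of 4.80 ± 0.87 passed (adjusted p 0.00391). The other member whose lineage difference changed was Il1rn, the IL-1 receptor antagonist. Il1rn stood at 237, 241 and 132 CPM in Th17n DFMO and 34.5, 42 and 18.3 CPM in Th17p DFMO, a gap of 2.68 ± 0.39 (adjusted p 0.000331), while vehicle libraries overlapped at 101, 114 and 82 CPM in Th17n and 77.8, 136 and 67.1 CPM in Th17p. The difference between the gaps was 2.60 ± 0.53 (adjusted p 0.0159).

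Maf, a transcription factor that drives Il10, had 70.5, 66.6 and 74.3 CPM in Th17n DFMO against 2.01, 1.98 and 2.38 CPM in Th17p DFMO. The groups were far apart, by 5.04 ± 0.49 (adjusted p 4.13e-06), and by 3.76 ± 0.46 in vehicle (adjusted p 5.48e-05). The aryl hydrocarbon receptor Ahr, a ligand-activated factor, was 18.4, 37.6 and 26.5 CPM in Th17n DFMO and 1.23, 2.26 and 1.87 CPM in Th17p DFMO, a difference of 3.91 ± 0.32 (adjusted p 1.42e-08). Of 8 AHR targets tested, 4 were higher and 1 lower in Th17n under DFMO, the list itself holding Ahr and Il22. The others were the cytochromes Cyp1b1 and Cyp1a1 and the AHR repressor Ahrr. Cyp1b1 had 8.41, 8.3 and 44 CPM in Th17n DFMO and 0, 0.282 and 0.341 CPM in Th17p DFMO (adjusted p 0.000163). Cyp1a1 had 1.73, 0.353 and 24.6 CPM in Th17n DFMO, nearly all in animal 3, and 0, 0 and 0.766 CPM in Th17p DFMO. Its adjusted p was 0.0483, and 0.085 in the paired fit with the animal as a replicate block, 0.259 without animal 1 and 0.187 without animal 2. Ahrr had 5.65, 4.15 and 13 CPM in Th17n DFMO and 0.223, 0 and 0.511 CPM in Th17p DFMO (adjusted p 0.0139; 0.169 without animal 1 and 0.0763 without animal 2).

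The regulatory T cell factor Foxp3, on chromosome X, had 100.5, 115 and 76.3 CPM in Th17n DFMO, against 2.35, 0.917 and 3.06 CPM in Th17p DFMO. Every Th17n library was far above every Th17p library, and the log2 fold change was 5.57 ± 0.41 (adjusted p 7.42e-07). In vehicle Foxp3 had 11.1, 11.1 and 11.8 CPM in Th17n and 0.881, 0 and 1.47 CPM in Th17p (3.75 ± 0.56, adjusted p 0.000449), and the change between treatments did not pass (1.82 ± 0.90, adjusted p 0.293). Foxp3 shares 359 bases of exon with Ccdc22. Of 23 Treg signature genes, 14 were higher and 6 lower in Th17n under DFMO (8.04% and 8.78% of all genes tested), against 11 and 1 in vehicle (9.47% and 10.5%). Capg, an actin-capping protein, was higher by 2.00 ± 0.13 (adjusted p 5.12e-09), more than in vehicle by 0.92 ± 0.18 (adjusted p 0.0069). Ikzf4, a partner of Foxp3, was higher by 1.24 ± 0.12 (adjusted p 2.24e-07) and by 1.24 ± 0.12 in vehicle. Il2ra, the high-affinity IL-2 receptor chain, was higher by 0.69 ± 0.10 (adjusted p 5.24e-05). Among the 6 lower members was the co-stimulatory receptor gene Tnfrsf18 (GITR), at 214, 199 and 289 CPM in Th17n DFMO and 469.7, 404 and 462 CPM in Th17p DFMO. Its log2 fold change was -0.93 ± 0.16 under DFMO (adjusted p 0.000475) and 0.62 ± 0.15 in vehicle (adjusted p 0.00936).

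TGF-beta target genes kept their Th17n bias: 9 of 19 were higher and 2 lower under DFMO (median 0.58), and 9 and 2 in vehicle (median 0.46). Of all genes tested, 8.04% were higher and 8.78% lower under DFMO. The 2 lower members are close to that share and are not read as a result about the list. Id1, an inhibitor of helix-loop-helix factors, had 44.5, 35 and 32.8 CPM in Th17n DFMO and 8.04, 5.64 and 5.79 CPM in Th17p DFMO, 2.54 ± 0.26 on the log2 scale (adjusted p 3.37e-07) beside 2.78 ± 0.30 in vehicle. Bambi, a decoy receptor of the pathway, was higher by 2.80 ± 0.35 (adjusted p 5.22e-06), and by 1.77 ± 0.48 more than in vehicle (adjusted p 0.0385). The TGF-beta receptor gene Tgfbr1 was higher by 1.67 ± 0.21 (adjusted p 6.27e-06) and Skil, a repressor of SMAD proteins, by 0.77 ± 0.10 (adjusted p 5.99e-06). The 2 lower members were Id3, at -1.29 ± 0.22 (adjusted p 0.000515), and Itgb8, the integrin chain that activates latent TGF-beta. Itgb8 had 1 count over the Th17n DFMO libraries and 64 over the Th17p DFMO libraries, a ratio of 57.0 in favour of Th17p (95% counting interval 9.87 to 2285), and its call was lost without animal 2 (adjusted p 0.0505).

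The pathogenic Th17 list mirrored this, with 12 of 17 genes lower and 0 higher in Th17n under DFMO (median -1.85), and 13 lower and 0 higher in vehicle (median -2.18). Here too the list comes from earlier work on such cells. Of the calls under DFMO, 10 were made in vehicle as well. The shares of all genes tested that were lower were 8.78% under DFMO and 10.5% in vehicle. Gzmb, the cytotoxic protease granzyme B, had 0.691, 0.706 and 3.35 CPM in Th17n DFMO, against 67.2, 53.7 and 78.5 CPM in Th17p DFMO. The groups did not overlap, and the log2 fold change was -5.34 ± 0.69 (adjusted p 0.000134), and -4.45 ± 0.60 in vehicle (adjusted p 0.000234). Il3, a growth factor of myeloid cells, stood at 0.461, 0.441 and 1.99 CPM in Th17n DFMO and 17.4, 14.5 and 18 CPM in Th17p DFMO (-4.06 ± 0.69, adjusted p 0.000472). Icos, a co-stimulatory receptor, was lower (log2 fold change -1.38 ± 0.09, adjusted p 7.24e-10). Tbx21, the T-bet gene that directs Th1 cells, had 7.84, 6.18 and 5.25 CPM in Th17n DFMO and 35.9, 40.1 and 31.2 CPM in Th17p DFMO. These did not overlap, and the gap of -2.48 ± 0.43 (adjusted p 0.000656) missed the threshold without animal 2 (0.0595). Ifng and Csf2 held too few counts to be tested: Ifng had 0, 0 and 2.17 CPM in Th17n DFMO and 0, 0 and 0.851 CPM in Th17p DFMO, and Csf2 0.346, 0 and 0 CPM in Th17n DFMO and 0.223, 0.423 and 0.341 CPM in Th17p DFMO.

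Of 11 Th1 genes, 5 were lower in Th17n under DFMO, Cxcr3, Il12rb2, Stat4 and Tbx21 among them, and 1 was higher (8.78% and 8.04% of all genes tested). Stat4, which relays IL-12 and IL-23 signals, was 47.4, 33.5 and 71.2 CPM in Th17n DFMO and 207, 162 and 183 CPM in Th17p DFMO, a gap of -1.86 ± 0.28 (adjusted p 0.000308) that was not called in vehicle (-0.51 ± 0.27, adjusted p 0.215). The difference between the gaps missed the threshold (-1.36 ± 0.38, adjusted p 0.0595). Cxcr3, a receptor for inflammatory chemokines, was lower (log2 fold change -2.44 ± 0.21, adjusted p 4.41e-08). Gata3, the Th2 master factor, had 1.96, 2.38 and 4.62 CPM in Th17n DFMO and 29.1, 30.1 and 39.6 CPM in Th17p DFMO. No library overlapped, and the gap of -3.44 ± 0.27 (adjusted p 4.48e-08) stood beside a vehicle gap of -1.34 ± 0.24, and the gaps differed by -2.09 ± 0.37 (adjusted p 0.00325).

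Of 9 cytotoxic granule genes tested, 5 were lower in Th17n under DFMO (Gzmb, Serpinb9, Serpinb6b, Nkg7 and Srgn) and 1, the cathepsin gene Ctsw, was higher. Ctsw had 77, 86.3 and 63.4 CPM in Th17n DFMO and 0.67, 0.353 and 0.766 CPM in Th17p DFMO (7.01 ± 0.66, adjusted p 7.76e-06). Nkg7 (adjusted p 0.00223) was lost without animal 1 (0.0789), and Srgn, which packs granules (adjusted p 0.0275), without animal 1 (0.372) and animal 2 (0.0858). Among 7 Th2 genes, Ccr4 and Ccr8 were higher and Gata3, Areg and Nfil3 lower, and Ccr8 was lost in the paired fit with the animal as a replicate block (adjusted p 0.0507). Among 13 follicular helper genes, Il21 and Cxcr5 were higher, and Icos, Cd40lg, Tox, Tcf7 and Btla lower. The shares over all genes tested were 8.04% higher and 8.78% lower under DFMO, and the higher calls in these 3 lists are too few to set against them. With 1 animal left out, several of these calls were lost. Without animal 1 the adjusted p was 0.186 for Ccr8, 0.103 for Nfil3, 0.0835 for Tcf7 and 0.0815 for Btla. Without animal 2 it was 0.249 for Ccr8, 0.132 for Nfil3, 0.171 for Tcf7, 0.143 for Tox and 0.3 for Btla, and without animal 3 0.18 for Nfil3, 0.105 for Tcf7 and 0.103 for Tox.

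Secreted factors, receptors and signalling genes split between the lineages. The shares to set beside the counts below are those over all genes tested under DFMO, 8.04% higher and 8.78% lower. Of 23 cytokine genes, 9 were higher and 5 lower in Th17n under DFMO (median 0.23), and of 29 cytokine receptor genes 8 were higher and 7 lower (median 0.00). Of 27 chemokine and chemokine receptor genes, 7 were higher and 5 lower, against 7 and 11 in vehicle. Of 20 adhesion genes, 5 were higher and 7 lower. Vcam1, a ligand of integrins, had 128 counts over the Th17n DFMO libraries and 3 over the Th17p DFMO libraries, a ratio of 47.9 (95% counting interval 16 to 235). Of 20 genes of the IL-1 and NF-kB response, 4 were higher (Icam1, Ccl20, Il1rn and Birc3) and 7 lower. Of 17 STAT targets, 4 were higher (Il21, Il2ra, Socs2 and Cish) and 3 lower (Pim2, Stat5a and Fos). Of 13 naive and memory genes, 2 were higher (Bach2 and Foxo1) and 6 lower. Of 20 genes of the early T cell receptor response, 2 were higher (Irf4 and Tnf) and 6 lower. Of 20 hypoxia genes, 4 were higher (Mxi1, Plod2, Car9 and Egln3) and 2 lower (Hif1a and Ndrg1), and Egln3 was lost in the paired fit (adjusted p 0.0672). With 2 animals per group some of these calls missed the threshold. Without animal 1 the adjusted p was 0.0813 for Birc3, 0.117 for Foxo1, 0.318 for Car9 and 0.411 for Ndrg1. Without animal 2 it was 0.138 for Birc3, 0.0812 for Cish, 0.0903 for Fos, 0.0791 for Foxo1, 0.398 for Egln3 and 0.37 for Ndrg1, and without animal 3 0.0849 for Birc3, 0.191 for Bach2 and 0.18 for Car9.

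Among genes with a mean log2 CPM of at least 2, the 15 largest increases and 15 largest decreases spanned membrane, matrix and secreted proteins. Aqp3, a water and glycerol channel, had 261, 273 and 295 CPM in Th17n DFMO, against 0.223, 1.34 and 0.17 CPM in Th17p DFMO, a log2 fold change of 8.70 ± 0.76 (adjusted p 4.24e-06). Tmem176a and Tmem176b, neighbouring membrane protein genes of the Th17 programme on chromosome 6, were higher by 7.05 ± 0.62 (adjusted p 9.4e-07) and 6.06 ± 0.50 (adjusted p 3.84e-07). Since they are related, their counts may not be fully separate. Ccl20, the ligand of Ccr6, had 61.2, 45.1 and 62.1 CPM in Th17n DFMO and 0.447, 0.564 and 0.851 CPM in Th17p DFMO (6.45 ± 0.87, adjusted p 0.000147). Gcnt2, an enzyme that branches glycans, stood at 59.8, 82.7 and 76.5 CPM in Th17n DFMO and 0.112, 0.988 and 0.426 CPM in Th17p DFMO. That is 6.99 ± 0.63 (adjusted p 2.89e-06), 4.71 ± 0.80 more than in vehicle (adjusted p 0.0049). Stab1, a scavenger receptor, was higher by 6.26 ± 0.34 (adjusted p 5.37e-11) and Cyp11a1, the first enzyme of steroid synthesis, by 5.41 ± 0.33 (adjusted p 1.91e-08).

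On the Th17p side stood Lum, which encodes the matrix proteoglycan lumican, with 0.461, 0.265 and 1.54 CPM in Th17n DFMO and 183, 119 and 149 CPM in Th17p DFMO. Its gap was -7.58 ± 0.31 (adjusted p 6.78e-11), against -6.32 ± 0.26 in vehicle. Serpinb9, the inhibitor of granzyme B, had 1.5, 1.59 and 3.26 CPM in Th17n DFMO and 185, 150.1 and 171 CPM in Th17p DFMO (-6.29 ± 0.28, adjusted p 5.88e-11). Serpinb6b, a related serpin gene for which sharing of reads with its relatives was not tested, was lower (log2 fold change -5.40 ± 0.37, adjusted p 3.37e-07). Its gap differed from vehicle by -2.38 ± 0.46 (adjusted p 0.0112). Slc17a6, a vesicular glutamate transporter, and the thyroglobulin gene Tg were lower, with log2 fold changes of -6.55 ± 0.49 (adjusted p 2.91e-08) and -4.74 ± 0.50 (adjusted p 2.13e-05). Tnfsf8, the CD30 ligand, had 4.03, 7.15 and 7.34 CPM in Th17n DFMO and 107, 108 and 102 CPM in Th17p DFMO, with a gap of -4.07 ± 0.24 (adjusted p 3.84e-09).

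**Figure D3:**
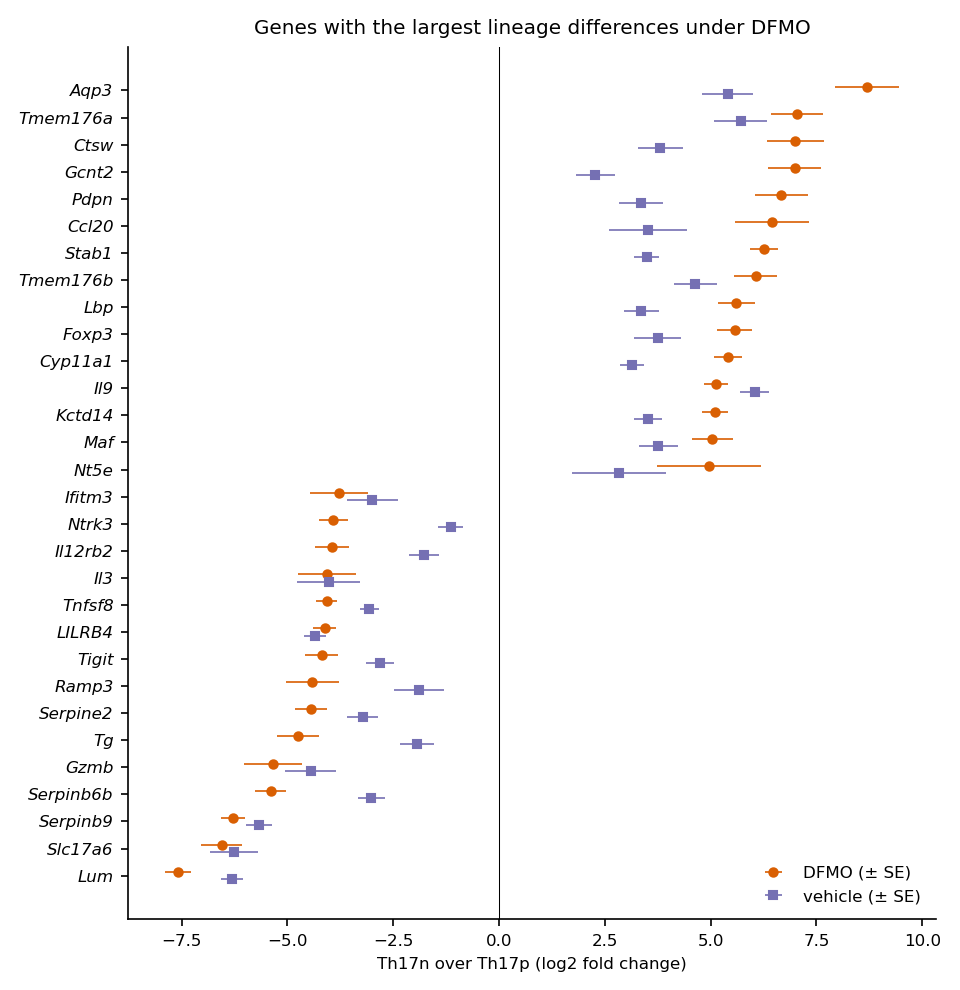
Log2 fold change of Th17n over Th17p ± SE under DFMO (circles) and in vehicle (squares) for the 15 genes highest and the 15 genes lowest in Th17n among those called under DFMO, n = 3 animals per group. All 30 have the same sign in vehicle, and Gcnt2, Pdpn, Tg and Ntrk3 are among those set farther from 0 under DFMO.

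Surface receptors that restrain T cells did not move as 1 group. Of 11 co-inhibitory genes, 4 were higher (Pdpn, Procr, Ctla4 and Entpd1) and 4 lower (Tigit, Cd274, Lag3 and Btla) in Th17n under DFMO. For each of the 4 higher genes the gap also changed from vehicle. Podoplanin (Pdpn) had 143, 148 and 127 CPM in Th17n DFMO and 1.68, 1.13 and 1.36 CPM in Th17p DFMO (6.67 ± 0.62, adjusted p 6.51e-06), and the change from vehicle was 3.32 ± 0.82 (adjusted p 0.0369). The endothelial protein C receptor gene Procr changed by 2.89 ± 0.70 (adjusted p 0.0197), Ctla4 by 0.93 ± 0.23 (adjusted p 0.0299) and the ectonucleotidase gene Entpd1 by 2.20 ± 0.61 (adjusted p 0.0436). Entpd1 under DFMO (1.64 ± 0.48, adjusted p 0.0209) was lost without animal 2 (0.322) and animal 3 (0.067). Tigit was 4.15, 1.15 and 3.17 CPM in Th17n DFMO and 56.4, 38 and 57.1 CPM in Th17p DFMO, a gap of -4.19 ± 0.39 (adjusted p 2.43e-06), and Cd274 (PD-L1) was lower (log2 fold change -1.83 ± 0.14, adjusted p 4.52e-09). Lag3 (-1.85 ± 0.44, adjusted p 0.01) was lost without animal 2 (0.224) and animal 3 (0.0579), and Btla (-0.36 ± 0.11, adjusted p 0.0309) without animal 1 (0.0815) and animal 2 (0.3).

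The unfolded protein response, in which the sensors IRE1, PERK and ATF6 raise chaperones of the endoplasmic reticulum, was on the Th17p side with either treatment, and less so under DFMO. Of 20 genes tested, 14 were lower and 0 higher in Th17n under DFMO (median -0.41), and 16 lower and 0 higher in vehicle (median -0.72). All 14 were called in vehicle too, and of all genes tested 8.78% were lower under DFMO and 10.5% in vehicle. For 6 of 20 the gap was smaller under DFMO: Hspa5, Hsp90b1, Calr, Sdf2l1, Manf and Creld2. The DFMO call of Calr, a lectin chaperone, was lost without animal 2 (adjusted p 0.144) and animal 3 (0.191). Hspa5, the chaperone BiP, had 1028, 998 and 988 CPM in Th17n DFMO, against 1702, 1608 and 1572 CPM in Th17p DFMO. In vehicle it had 751, 819 and 860.2 CPM in Th17n and 2087, 2199 and 2229 CPM in Th17p. Th17n was below Th17p in every library of either treatment, with gaps of -0.70 ± 0.08 under DFMO (adjusted p 1.97e-06) and -1.42 ± 0.08 in vehicle (adjusted p 1.69e-10), and the gaps differed by 0.73 ± 0.11 (adjusted p 0.001). Hsp90b1, the chaperone GRP94, had 919, 805 and 835 CPM in Th17n DFMO and 1303, 1162 and 1255 CPM in Th17p DFMO. Its gaps were -0.54 ± 0.06 under DFMO (adjusted p 2.96e-06) and -1.0 ± 0.07 in vehicle, differing by 0.46 ± 0.09 (adjusted p 0.00512). Creld2, a secreted stress protein singled out after its values were seen, had gaps of -0.80 ± 0.13 under DFMO and -1.43 ± 0.13 in vehicle (adjusted p of the difference 0.0496).

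The promoters of these 3 genes are shown because they hold the letters of the endoplasmic reticulum stress response element (ERSE), which ATF6 binds together with NF-Y. Windows run from 250 bases before to 50 bases after the start site in RefSeq on GRCm38.p6, 5′ to 3′ along the gene, and the letters searched were CCAAT, then any 9 bases, then CCACG, on either strand, with matches in capitals. They were found in 8 of 17 listed genes that had a window, in 6 of 12 called ones, and in 0.181% of the 8832 tested genes with a window (0.119% of all windows). The match says nothing of binding in these cells.
Hspa5 (chr2:34771840-34772139, plus strand): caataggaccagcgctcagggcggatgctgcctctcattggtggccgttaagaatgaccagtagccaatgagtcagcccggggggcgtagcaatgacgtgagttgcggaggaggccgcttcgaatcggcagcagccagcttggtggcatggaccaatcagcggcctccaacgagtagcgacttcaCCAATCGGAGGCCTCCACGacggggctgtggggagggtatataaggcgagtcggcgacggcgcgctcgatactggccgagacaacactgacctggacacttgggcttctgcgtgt
Hsp90b1 (chr10:86705395-86705694, minus strand): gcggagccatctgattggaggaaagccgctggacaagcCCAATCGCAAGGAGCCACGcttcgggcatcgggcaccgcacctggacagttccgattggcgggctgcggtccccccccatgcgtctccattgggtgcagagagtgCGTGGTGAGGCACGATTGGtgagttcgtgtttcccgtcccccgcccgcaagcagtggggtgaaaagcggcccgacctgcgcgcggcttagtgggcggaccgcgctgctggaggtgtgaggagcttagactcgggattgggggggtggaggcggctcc
Creld2 (chr15:88819396-88819695, plus strand): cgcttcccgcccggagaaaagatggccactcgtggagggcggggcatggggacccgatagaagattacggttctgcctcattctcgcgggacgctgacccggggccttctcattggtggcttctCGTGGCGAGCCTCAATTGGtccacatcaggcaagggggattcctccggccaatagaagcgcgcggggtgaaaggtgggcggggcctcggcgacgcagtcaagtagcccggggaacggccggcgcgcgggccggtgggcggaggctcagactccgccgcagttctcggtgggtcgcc

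Interferon response genes, which restrain viruses and other microbes inside cells, were also lower in Th17n, but fewer of them were called under DFMO. Of 35 genes tested, 11 were lower and 1 higher in Th17n under DFMO (median -1.13), against 24 and 0 in vehicle (median -2.01). The shares of all genes tested that were lower were 8.78% under DFMO and 10.5% in vehicle. Some members not called under DFMO had large gaps, such as Oas1a (-5.08, adjusted p 0.369) and Oasl1 (-2.43, adjusted p 0.196). Others were slightly positive, such as Igtp (0.05, adjusted p 0.792) and Bst2 (0.14, adjusted p 0.461). The number of calls alone thus does not measure the size of the gaps. For 4 the gap was smaller under DFMO: Xaf1, Gbp2, Iigp1 and Irf9, picked out here by that test. The DFMO call of Xaf1 was lost without animal 1 (adjusted p 0.153), 2 (0.0821) or 3 (0.0524). Ifih1, the RNA sensor MDA5, had 1.27, 2.38 and 4.53 CPM in Th17n DFMO and 28.7, 38 and 27.1 CPM in Th17p DFMO, without overlap (-3.48 ± 0.31, adjusted p 2.56e-07; vehicle -2.57 ± 0.26). The guanylate-binding protein gene Gbp2 was 55.7, 57.9 and 49.6 CPM in Th17n DFMO and 103, 143 and 109.7 CPM in Th17p DFMO, beside 51.6, 52.4 and 55.3 CPM in Th17n and 615, 246 and 430.4 CPM in Th17p in vehicle. The Th17p values lay lower with DFMO in every animal, a contrast not tested here, and the gaps of -1.13 ± 0.28 under DFMO (adjusted p 0.0126; 0.0751 without animal 1 and 0.152 without animal 3) and -3.02 ± 0.29 in vehicle differed by 1.89 ± 0.39 (adjusted p 0.0163). Iigp1, an immunity-related GTPase, had a vehicle gap of -6.00 ± 0.85 (adjusted p 0.00023) and a DFMO value of -0.74 ± 0.57 (adjusted p 0.449), with a difference of 5.26 ± 1.13 (adjusted p 0.0178).

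Isg15, an interferon-induced ubiquitin-like protein, and Gbp5, a GTPase, were singled out after their values were seen, to show the interferon-stimulated response element (ISRE, searched as GAAA, any 2 bases and GAAA on either strand, overlapping matches counted). Isg15 had 1.96, 1.24 and 0.634 CPM in Th17n DFMO and 4.36, 6.63 and 3.75 CPM in Th17p DFMO (-2.0 ± 0.55, adjusted p 0.0223; 0.0702 without animal 1, 0.269 without animal 2 and 0.0691 in run 2 alone). Gbp5 had 3.46, 6 and 7.52 CPM in Th17n DFMO and 12.5, 13.8 and 14.5 CPM in Th17p DFMO (-1.25 ± 0.28, adjusted p 0.0029; 0.0658 without animal 2). The letters stood in 17 of 27 listed genes with a window, in 8 of 10 called ones, and in 3.76% of tested genes with a window (3.44% of all windows). The capitals mark them in the same kind of window.
Isg15 (chr4:156200769-156201068, minus strand): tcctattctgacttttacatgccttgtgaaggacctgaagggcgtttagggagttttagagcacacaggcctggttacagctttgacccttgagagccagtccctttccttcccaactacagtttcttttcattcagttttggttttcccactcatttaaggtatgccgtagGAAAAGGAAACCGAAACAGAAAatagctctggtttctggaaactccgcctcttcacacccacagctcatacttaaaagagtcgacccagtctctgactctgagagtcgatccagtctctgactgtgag
Gbp5 (chr3:142496684-142496983, plus strand): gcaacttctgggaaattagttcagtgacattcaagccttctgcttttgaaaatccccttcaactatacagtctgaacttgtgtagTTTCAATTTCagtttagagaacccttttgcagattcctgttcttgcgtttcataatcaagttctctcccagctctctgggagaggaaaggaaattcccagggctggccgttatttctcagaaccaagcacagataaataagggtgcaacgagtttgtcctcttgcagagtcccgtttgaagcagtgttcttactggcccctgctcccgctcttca

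Some genes of DNA replication were called higher in Th17n under DFMO and not in vehicle. Of 30 S phase genes, 10 were higher and 0 lower in Th17n under DFMO (median 0.21), whereas 1 was higher and 5 lower in vehicle (median -0.06), and no gene was called the same way in both. The shares over all genes tested were 8.04% higher and 8.78% lower under DFMO, and 9.47% and 10.5% in vehicle. On log2(TPM + 1), 3 of the 30 were called higher under DFMO and 8 lower in vehicle, with medians of 0.15 under DFMO and -0.18 in vehicle. Of all 11526 genes, 618 were higher under DFMO and 1781 lower in vehicle on that scale. The difference between gaps was called for 7, all upward: Cdc6, Rrm2, Ccne2, Mcm2, Tipin, Cdt1 and Mcm5. Of all genes tested, 2.63% were called upward in that test, and whether these 7 calls hold with 1 animal left out is not shown. The DFMO calls of Cdc6 and Mcm5 were lost without animal 2 (adjusted p 0.0549 and 0.0806), and that of Cdc6 without animal 3 (0.0979). Rrm2, a subunit of ribonucleotide reductase, had 642, 674 and 669 CPM in Th17n DFMO and 465, 482 and 479 CPM in Th17p DFMO. In vehicle Rrm2 had 218, 214 and 254 CPM in Th17n and 317, 295 and 329 CPM in Th17p. The order of the lineages was opposite in every animal, with 0.48 ± 0.11 under DFMO (adjusted p 0.00269; 0.0604 without animal 2), -0.46 ± 0.11 in vehicle (adjusted p 0.00424) and a difference of 0.93 ± 0.15 (adjusted p 0.00131). Mcm2, part of the replicative helicase, was 489, 494 and 457 CPM in Th17n DFMO and 344, 358 and 357 CPM in Th17p DFMO (0.44 ± 0.08, adjusted p 0.00052), with a change from vehicle of 0.59 ± 0.12 (adjusted p 0.00553). Mitotic genes leaned to Th17n in both: 12 of 30 were higher and 0 lower under DFMO (median 0.21; 6 higher on log2(TPM + 1)), and 20 higher and 1 lower in vehicle (median 0.42; 8 higher and 1 lower on log2(TPM + 1), median 0.28), with 11 shared calls. The difference between gaps was called for 0 of them in edgeR (5 at an unadjusted p under 0.05), for 0 in DESeq2 (5 unadjusted) and for 0 on log2(TPM + 1) (2 unadjusted). Kif23, a motor protein of cell division, was higher by 0.55 ± 0.12 under DFMO (adjusted p 0.00177).

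Helicase subunit genes Mcm5 (named after its values were seen) and Mcm6 show the E2F letters in capitals. Mcm5 had 510.2, 591 and 556 CPM in Th17n DFMO and 422, 448 and 453 CPM in Th17p DFMO (0.33 ± 0.08, adjusted p 0.0039; 0.0806 without animal 2 and 0.136 on log2(TPM + 1)). Mcm6 had 633, 729.6 and 647 CPM in Th17n DFMO and 479, 503 and 545 CPM in Th17p DFMO (0.40 ± 0.09, adjusted p 0.00293; 0.0736 without animal 2 and 0.0634 on log2(TPM + 1)). The letters TTTCCCGC, TTTGGCGC, TTTCGCGC or TTTGCCGC were searched on either strand, where matches may overlap. They stood in 9 of 22 listed S phase genes with a window, in 5 of 8 called ones, and in 4.78% of tested genes with a window (2.26% of all windows).
Mcm5 (chr8:75109259-75109558, plus strand): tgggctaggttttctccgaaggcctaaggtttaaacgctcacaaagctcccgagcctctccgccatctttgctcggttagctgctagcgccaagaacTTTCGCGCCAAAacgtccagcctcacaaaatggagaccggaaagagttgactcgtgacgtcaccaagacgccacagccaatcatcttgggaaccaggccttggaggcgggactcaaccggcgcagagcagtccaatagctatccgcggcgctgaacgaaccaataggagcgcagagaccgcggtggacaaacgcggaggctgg
Mcm6 (chr1:128359656-128359955, minus strand): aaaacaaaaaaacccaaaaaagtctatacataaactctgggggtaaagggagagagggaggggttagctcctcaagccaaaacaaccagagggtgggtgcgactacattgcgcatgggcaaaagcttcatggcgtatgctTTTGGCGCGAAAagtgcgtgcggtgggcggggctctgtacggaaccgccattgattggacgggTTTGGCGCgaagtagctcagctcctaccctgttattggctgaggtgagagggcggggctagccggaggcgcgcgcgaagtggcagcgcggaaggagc

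Ribosome biogenesis genes, which build rRNA and ribosomal subunits in the nucleolus, were called between the lineages in vehicle and not under DFMO. In edgeR 0 of 23 were called under DFMO (median 0.15; 7 at an unadjusted p under 0.05), while 1 was higher and 13 lower in Th17n in vehicle (median -0.36), and the difference between gaps was called upward for 10. DESeq2 called 0 under DFMO (7 unadjusted) and limma on log2(TPM + 1) called 0 (0 unadjusted), and the paired fit with the animal as a replicate block called 1, Polr1b (adjusted p 0.0378). Bop1, an assembly factor of the large subunit, had 252, 241 and 215 CPM in Th17n DFMO and 200.3, 204 and 207 CPM in Th17p DFMO. It had 96.4, 99.8 and 103 CPM in Th17n and 135, 137 and 139.8 CPM in Th17p in vehicle. Every DFMO library lay above every vehicle library of its lineage, a contrast not tested here. The gap was 0.21 ± 0.09 under DFMO (adjusted p 0.128), -0.46 ± 0.09 in vehicle (adjusted p 0.00129), and their difference 0.67 ± 0.13 (adjusted p 0.0049). Nolc1 and Nop56, nucleolar proteins named after their values were seen, had the same pattern, with differences between gaps of 0.90 ± 0.13 (adjusted p 0.000488) and 0.78 ± 0.12 (adjusted p 0.00101).

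**Figure D4:**
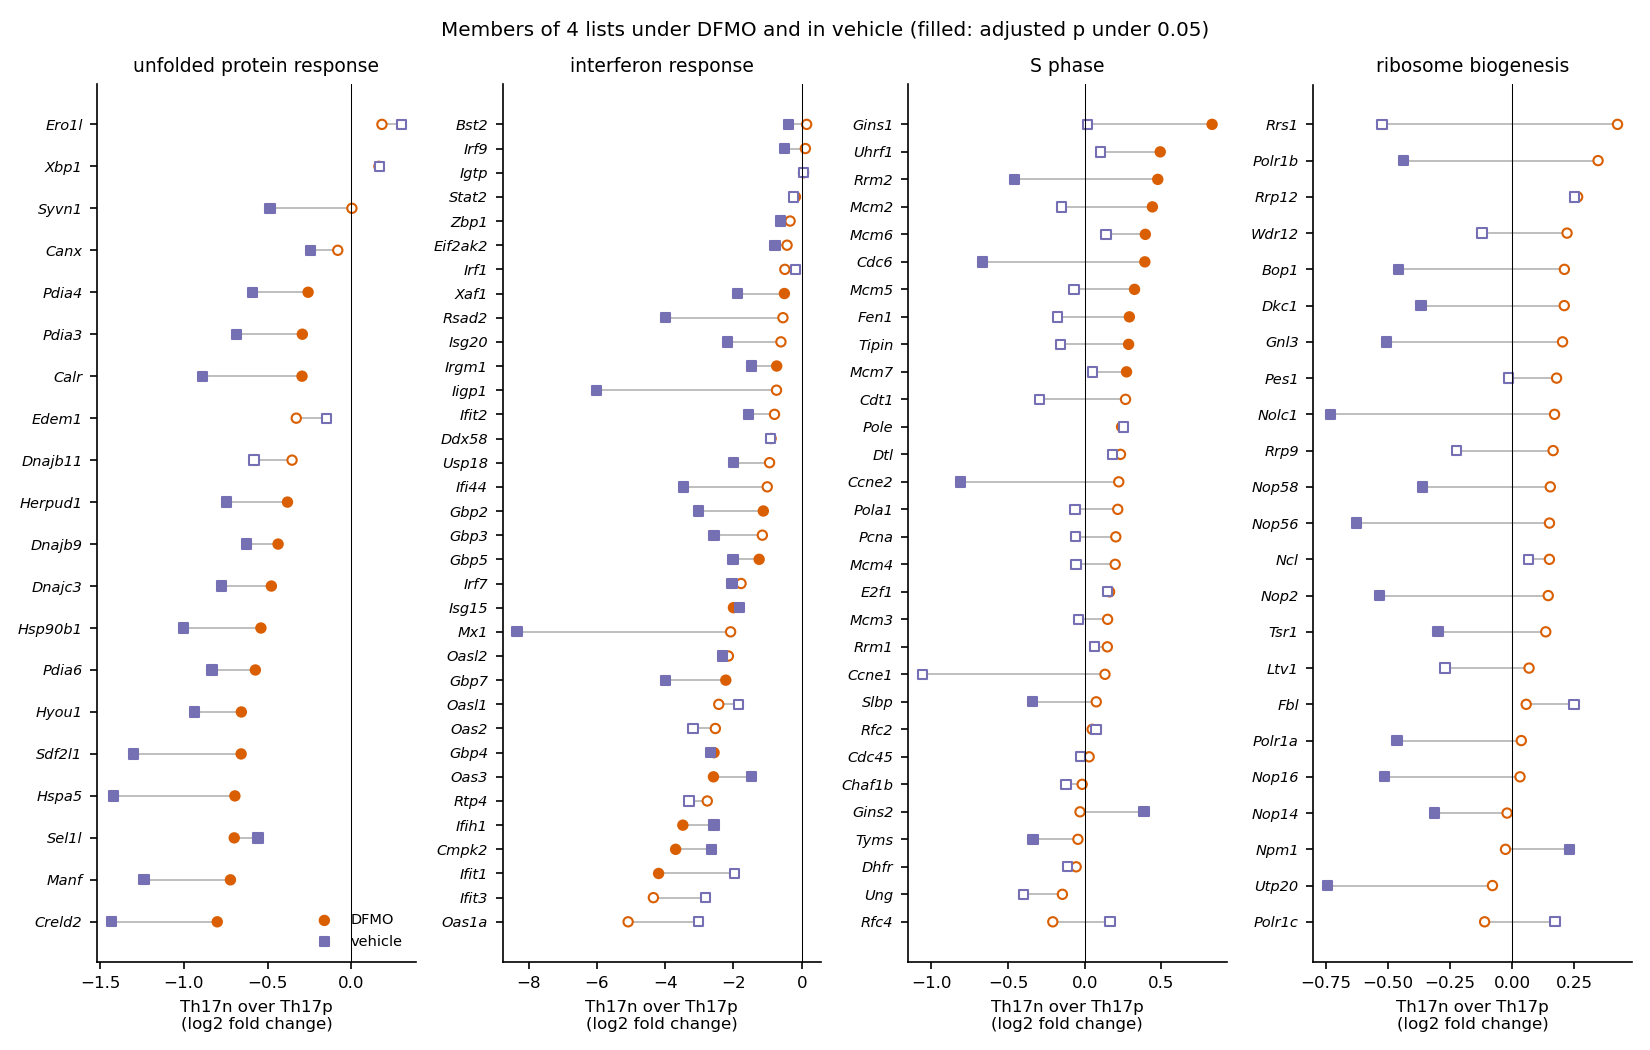
Log2 fold change of Th17n over Th17p for the tested members of 4 lists (1 interferon response member is not shown), under DFMO (circles) and in vehicle (squares), filled where the adjusted p is under 0.05, with each panel on its own scale. Median values are -0.41 under DFMO and -0.72 in vehicle for the unfolded protein response and 0.21 and -0.06 for S phase, and ribosome biogenesis has 0 of 23 filled under DFMO.

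Some genes of polyamine metabolism differed between the DFMO-treated lineages. Of 22 tested, 16 were not called, 1 was higher (Eif5a) and 5 were lower (Sms, Oaz1, Smox, Odc1 and Oaz2) in Th17n, against 1 and 6 in vehicle. Over all genes tested, 8.04% were higher and 8.78% lower under DFMO. Eif5a was lost without animal 2 (adjusted p 0.0902), and Oaz2 without animal 1 (0.159) and animal 3 (0.0771). Odc1, the DFMO target, had 184, 184 and 206 CPM in Th17n DFMO, against 315, 312 and 319 CPM in Th17p DFMO. No library overlapped, and the gap was -0.72 ± 0.13 (adjusted p 0.000715), while vehicle libraries overlapped at 163, 173 and 165 CPM in Th17n and 157, 235 and 204 CPM in Th17p (-0.25 ± 0.13, adjusted p 0.216). The difference between the gaps did not pass (-0.47 ± 0.19, adjusted p 0.172). Smox, the spermine oxidase, stood at 38.8, 30.7 and 56.4 CPM in Th17n DFMO and 111, 91.9 and 141 CPM in Th17p DFMO (-1.44 ± 0.22, adjusted p 0.000341). Sms, the spermine synthase, was lower (log2 fold change -0.58 ± 0.08, adjusted p 3.72e-05).

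Antizymes bind Odc1 and send it to degradation. Oaz1 had 439, 421 and 455 CPM in Th17n DFMO and 594, 543 and 591 CPM in Th17p DFMO, a gap of -0.39 ± 0.07 (adjusted p 0.000216) that was not called in vehicle (0.03 ± 0.07, adjusted p 0.777) and differed from it by -0.43 ± 0.10 (adjusted p 0.0112). Oaz2 was lower (log2 fold change -0.59 ± 0.17, adjusted p 0.0172). Amd1, which makes the aminopropyl donor for spermidine, was called in vehicle and not under DFMO: the values were 0.09 ± 0.08 under DFMO (adjusted p 0.549), -0.48 ± 0.08 in vehicle (adjusted p 0.000312) and 0.57 ± 0.12 for the difference (adjusted p 0.00744). Eif5a, the protein that carries hypusine, was higher by 0.32 ± 0.07 under DFMO (adjusted p 0.00293). Sat1, which acetylates spermidine and spermine, depended on the animal, with 275, 34.1 and 335 CPM in Th17n DFMO and 450.4, 31.5 and 498 CPM in Th17p DFMO. Animal 2 was about an order lower than the others in all 4 groups, and the gap of -0.60 ± 1.36 (adjusted p 0.825) became -0.63 without animal 2 (adjusted p 0.0041) and -0.42 in the paired fit (adjusted p 0.0565). Of 21 histone demethylase and polycomb genes, Kdm2a was higher (0.40 ± 0.13) and Kdm2b (-0.57 ± 0.12), Kdm5b (-0.67 ± 0.16) and Kdm5c (-0.31 ± 0.09) were lower in Th17n under DFMO, and each of these calls was lost without animal 2 (adjusted p 0.329, 0.054, 0.116 and 0.198). Kdm2a and Kdm5c were also lost without animal 1 (0.0854 and 0.0696) and without animal 3 (0.0668 and 0.132). The shares over all genes tested were 8.04% higher and 8.78% lower. Kdm6b, the demethylase of the repressive mark H3K27me3, did not pass under DFMO (0.36 ± 0.13, adjusted p 0.0713). It passed with only the compared groups in the fit (0.0395) and in run 1 alone (0.0142). In vehicle Kdm6b was called with a similar gap (0.41 ± 0.13, adjusted p 0.0355), and the gaps did not differ by the test (-0.05 ± 0.19, adjusted p 0.924).

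**Figure D5:**
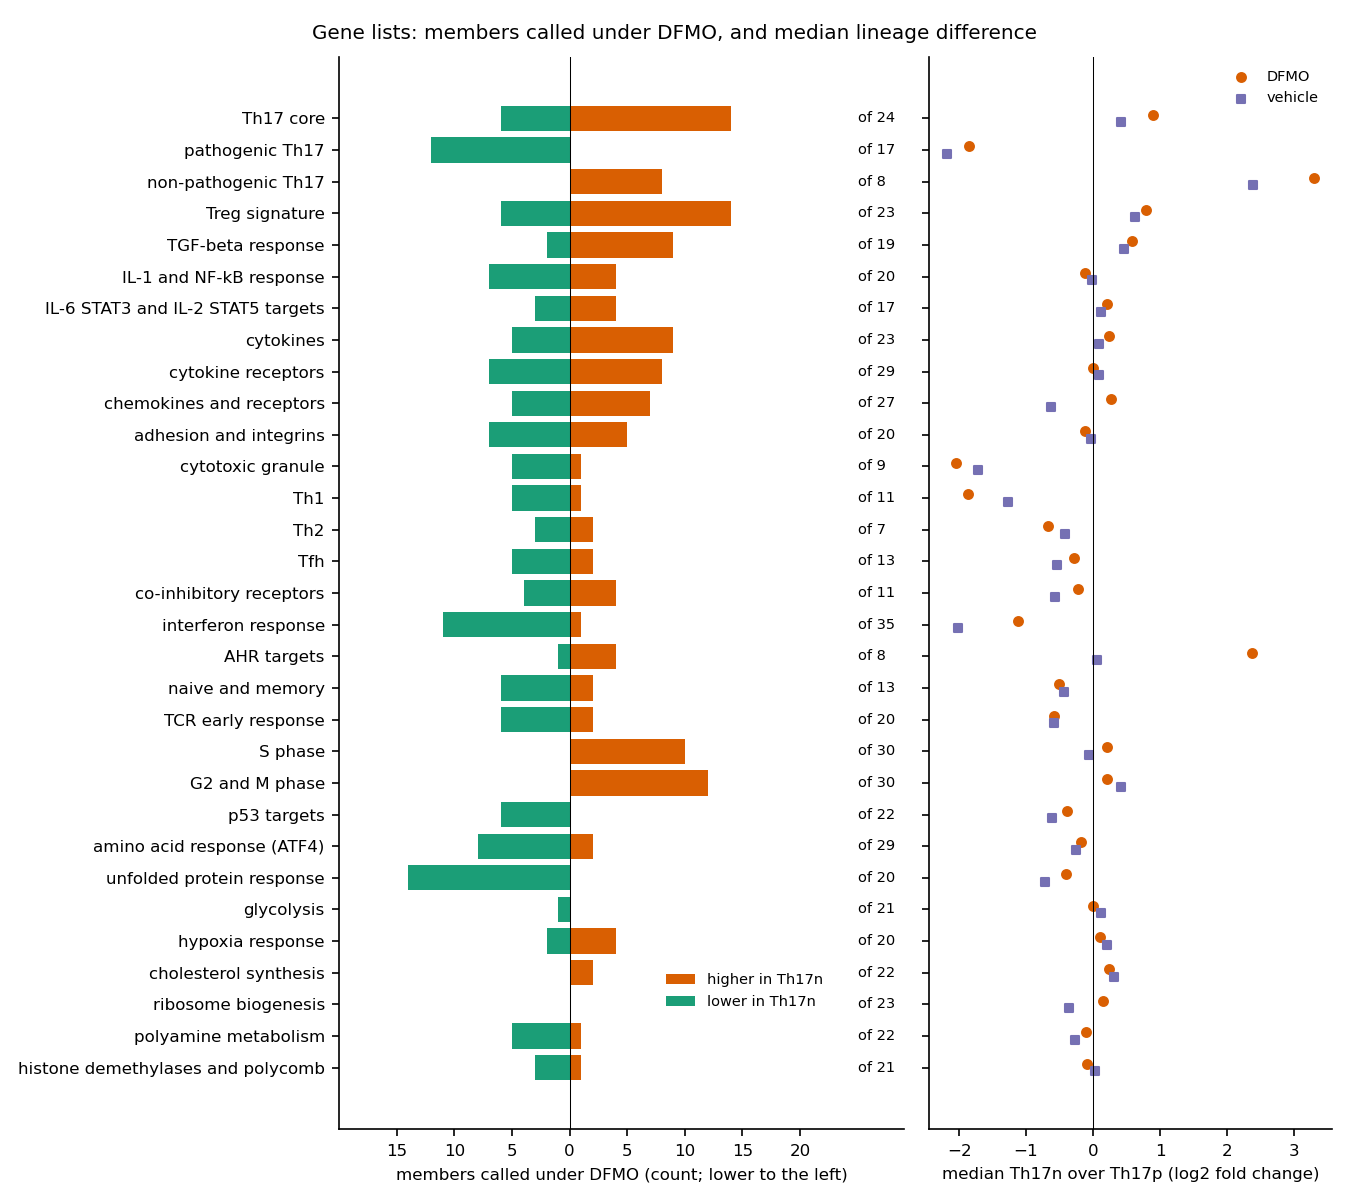
Left, number of members of each list called higher (to the right) or lower (to the left) in Th17n under DFMO, with the number tested. Right, median log2 fold change of Th17n over Th17p of each list under DFMO (circles) and in vehicle (squares). The non-pathogenic Th17 list (8 of 8 higher) and the pathogenic Th17 list (12 of 17 lower) lie on opposite sides of 0, and ribosome biogenesis has 0 calls.

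Of 21 glycolysis genes, 1 (Gpi1) was lower and 0 were higher under DFMO, while 4 were higher in vehicle. Gpi1, an isomerase, had 543, 596 and 611 CPM in Th17n DFMO and 666, 739 and 689 CPM in Th17p DFMO (-0.26 ± 0.08, adjusted p 0.0335), and was lost without animal 1 (0.0975), animal 2 (0.312) and animal 3 (0.0577). Of 22 cholesterol synthesis genes, 2 were higher, Ebp (0.41 ± 0.12) and Sc5d (0.53 ± 0.16), and both were lost without animal 2 (adjusted p 0.271 and 0.16) and without animal 3 (0.0678 and 0.063). On log2(TPM + 1), 0 of the 22 were called. Over all genes tested, 8.04% were higher and 8.78% lower under DFMO, so the glycolysis and cholesterol counts are not read as results about these lists. Of 22 p53 targets, 6 were lower and 0 higher (9 and 0 in vehicle), with Perp, a desmosomal protein, at 11.5, 7.24 and 12.8 CPM in Th17n DFMO and 71.8, 62.1 and 82.6 CPM in Th17p DFMO (-2.78 ± 0.26, adjusted p 8.57e-07), and Mdm2, the p53 ubiquitin ligase, at -0.63 ± 0.10 (adjusted p 8.1e-05). Of 29 amino acid response genes, 8 were lower and 2 higher, Nupr1 (1.31 ± 0.19, adjusted p 4.03e-05) and Slc7a5 (0.54 ± 0.15, adjusted p 0.0114; 0.0858 without animal 1 and 0.11 without animal 2). Ddit3, the stress factor CHOP, was lower (log2 fold change -1.15 ± 0.17, adjusted p 8.9e-05), and its gap differed from vehicle by -0.96 ± 0.24 (adjusted p 0.026).

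Among the 27 genes called in opposite directions, 14 were higher in Th17n under DFMO and lower in vehicle, and 13 the other way round. Chst2, a sulfotransferase of carbohydrate chains, had 35.8, 35.9 and 43.8 CPM in Th17n DFMO and 19.7, 23.2 and 17.2 CPM in Th17p DFMO. Vehicle libraries held 1.59, 1.75 and 2.8 CPM in Th17n and 7.6, 6.16 and 4.78 CPM in Th17p. The lineage order was turned round in every animal, with gaps of 0.94 ± 0.20 under DFMO (adjusted p 0.00148) and -1.55 ± 0.25 in vehicle (adjusted p 0.000155). Ifi47, an interferon-induced GTPase, was 161, 173 and 140.3 CPM in Th17n DFMO and 81.5, 88.7 and 90.5 CPM in Th17p DFMO (0.86 ± 0.16, adjusted p 0.000998), while its vehicle gap was -0.54 ± 0.16 (adjusted p 0.024).

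Markers of other cells were low. B cell markers summed to 4.49 to 8.24 CPM in Th17n DFMO and 18.4 to 25.4 CPM in Th17p DFMO, most of it Ebf1, with none of the 6 genes at 0 counts in either group. CD8 T cell markers (2 genes, mainly Cd8b1) summed to 7.95 to 13.4 CPM in Th17n DFMO and 15.9 to 18.7 CPM in Th17p DFMO. NK and innate lymphoid markers (5 genes, mainly Nkg7) summed to 1.32 to 2.17 CPM in Th17n DFMO and 6.42 to 7.15 CPM in Th17p DFMO, with Klrb1c at 0 counts in both. These sums do not overlap between the lineages, in the direction of the Th1 and cytotoxic lists, and their part in those results was not tested. Nkg7 is itself a member of the cytotoxic granule list, so its sum is not separate from that list. Some members went the other way. Cd79b was higher in Th17n DFMO (2.17 ± 0.45, adjusted p 0.00137; 0.0691 without animal 2). Klre1 had 15 counts over the Th17n DFMO libraries and 0 over the Th17p DFMO libraries. Cd8a was not called (0.56 ± 0.81, adjusted p 0.713). Myeloid markers, nearly all Cst3, gave 105.1 to 115.8 CPM in Th17n DFMO and 96.2 to 110.1 CPM in Th17p DFMO, with Lyz2 at 0 counts in both. T cell markers gave 1566 to 1597 CPM in Th17n DFMO and 1581 to 1699 CPM in Th17p DFMO, and Cd4 was 262 ± 23.9 CPM in Th17n DFMO and 310.3 ± 7.8 CPM in Th17p DFMO (SD, n = 3). The close sums cover members called both ways. Cd28 (-0.58 ± 0.10, adjusted p 0.00035), Cd3g (-0.56 ± 0.11, adjusted p 0.000552) and Cd4 (-0.25 ± 0.07, adjusted p 0.025) were lower in Th17n DFMO. Lck, the largest member, was higher (0.31 ± 0.08, adjusted p 0.00681). The Cd4 call was lost without animal 1 (0.236) and animal 2 (0.279).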

How the data were processed

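Per the labels' protocols, full-length RNA libraries of live-sorted cultured CD4 T cells were sequenced as read pairs. Per the submitters' processing notes, the authors used Bowtie2 and RSEM on the build GRCm38.p3; their versions, the annotation and any strand setting are not stated there. The deposited tables hold expected counts (estimated read counts per gene, not normalized, 12.2% of them not whole) and, made by the authors per run, TPM (length-scaled transcript shares). Each has 36 columns and 20817 gene symbols, of which 20079 matched GENCODE M21. Runs of a library were summed, then rounded.

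All 18 libraries were fitted in edgeR 4.0.16 (R 4.3.3) as 6 group means, with TMM scaling, the default low-count filter and the robust quasi-likelihood test, two-sided. P-values were adjusted by Benjamini-Hochberg over 11526 genes and called under 0.05. Standard errors were derived from each log2 fold change and its F statistic. On counts simulated for the DFMO comparison over 11526 genes, 68% of changes of 1 and 90% of changes of 2 on the log2 scale were recovered, 6.51% of the calls being false. In this simulation 100 genes were changed at each size, in the Th17n DFMO group only. All other values came from a mean shared by the groups, without an animal effect. Far more genes were called in the data, so these rates need not carry over. Alternatives were DESeq2 1.42.0, limma 3.58.1 on log2(TPM + 1) or log2(TPM + 0.1), other filters and scalings, single runs, only the compared groups, the animal as a block and each animal left out.

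The 2 runs of a library differed little beyond counting error (chi-square per degree of freedom 1.20 to 1.54, against 3.64 to 8.96 between animals; genes with at least 20 counts). The labels give the same animal number across groups, so the design is paired. Deviations from group means correlated at a median r of 0.12 between libraries of the same animal (18 pairs) and -0.05 between animals (36 pairs). Counting intervals and limits cover counting error only, since reads carry no molecular identifiers.

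Members, lists and tests were chosen with earlier results of these data known. The genes named are, under DFMO, the 15 largest increases and 15 largest decreases (mean log2 CPM of at least 2, same sign in all 3 animals, no predicted genes, histones or antigen receptor segments), the 4 strongest members by p in each list (all members where a count was 5 or fewer), the 10 largest differences between lineage differences, 8 genes with opposite calls, and genes chosen whatever their result. Genes named after their values were seen are marked in the text, and Calr, Sdf2l1, Cdc6, Xaf1, Gbp2, Iigp1 and Irf9 belong with them. The other lists are cytokines, cytokine receptors, chemokines, adhesion, IL-1 and NF-kB response, STAT targets, Tfh, naive and memory, TCR response and hypoxia. Promoter sequences are RefSeq's on GRCm38.p6. Results for a few genes are not reported here.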

Additional observations from a re-analysis of the deposited data

Results flagged for a closer look

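The lineage difference under DFMO differed from that in vehicle, by edgeR's quasi-likelihood test of the difference itself (adjusted p under 0.05 over 11526 genes, n = 3 animals per group), for these genes named above. Values are the DFMO log2 fold change minus the vehicle log2 fold change, Th17n over Th17p in each. Upward differences among cytokines and surface or secreted proteins were 4.80 for Il10, 3.63 for Il17a, 2.97 for Il17f, 2.60 for Il1rn, 3.32 for Pdpn, 2.89 for Procr, 2.77 for Stab1, 2.20 for Entpd1, 1.77 for Bambi, 0.93 for Ctla4, 0.52 for Ccr4, 0.64 for Icam1 and 0.80 for Slc7a5. Interferon-related genes gave 5.26 for Iigp1, 1.89 for Gbp2, 1.41 for Ifi47, 1.37 for Xaf1 and 0.62 for Irf9. Chaperone genes of the endoplasmic reticulum gave 0.73 for Hspa5, 0.64 for Sdf2l1, 0.63 for Creld2, 0.60 for Calr, 0.52 for Manf and 0.46 for Hsp90b1. Replication genes gave 1.06 for Cdc6, 0.93 for Rrm2, 0.59 for Mcm2 and 0.39 for Mcm5, and nucleolar genes 0.90 for Nolc1, 0.78 for Nop56, 0.78 for Polr1b and 0.67 for Bop1. The other upward values were 4.71 for Gcnt2, 2.50 for Chst2, 2.27 for Cyp11a1, 1.43 for Mxi1, 0.92 for Capg and 0.57 for Amd1.

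Downward differences were -2.81 for Tg, -2.77 for Ntrk3, -2.38 for Serpinb6b, -2.16 for Il12rb2, -2.09 for Gata3, -1.55 for Tnfrsf18, -0.96 for Ddit3, -0.48 for Gpi1, -0.47 for Kdm5c, -0.46 for Cd4 and -0.43 for Oaz1. With 1 animal left out the same test called 97, 27 and 331 genes in all, and whether the genes listed here were among them is not shown.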

How the results depend on the processing

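Under DFMO the count of 1939 called genes ranged over 898 to 1517 with each animal left out, the vehicle count of 2303 over 944 to 1553, the 574 called differences between lineage differences over 27 to 331, and the 903 calls shared by both treatments over 382 to 630. The 574 became 382 on log2(TPM + 0.1). With the animal as a replicate block, 2204 genes were called under DFMO, 1918 of them called the same way without it, and the block ended 3 calls and added 3 among 204 named genes. It gave 2588 calls in vehicle, 783 called differences and 1021 shared calls. DESeq2 called 2090, 2424 and 843 genes. On log2(TPM + 0.1) the DFMO split was 646 higher and 1164 lower, and the median over all genes in vehicle was -0.13. Of 181 named genes called under DFMO, 116 kept their call under all 13 alternatives that gave a value. With 1 animal left out, the log2 fold change of Azin1 ranged over -0.06 to 0.054 and that of Cd79a over -2.30 to 0.17, and neither was called. Ifng and Csf2 held too few counts to pass the filter and were not tested, and the cause of the shifts was not tested.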
